A study of Mus musculus with 13 samples.

Results

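NUP210 is a transmembrane protein of the nuclear pore complex, and the regions described here are the places inside genes where NUP210 was found by ChIP-seq while a pan-nucleoporin antibody gave no listed peak. They are the distinct NUP210 peaks that share not even 1 bp with any peak of the NPC antibody and that cover neither the start nor the end of a gene they are listed with. There were 2926 such regions among 13204 distinct NUP210 peaks (22.2%), and the absence of an NPC peak is what selected them. They lie in 1598 genes. All libraries came from 4T1, a cell line of a spontaneous mammary tumor of BALB/cJ mice. NUP210 and NPC (the antibody MAb414, which recognizes several nucleoporins) were mapped in sg-Ctrl cells, which carry a non-targeting guide. H3K27me3 and H3K4me3 were mapped in sg-Ctrl cells and in KO cells, the CRISPR/Cas9 Nup210 knockout N13, whose cells were grown from an isolated single cell, so that KO stands for 1 clone. With 1 library per condition, no value below has a replicate, and the intervals given cover counting error or the spread among regions only.

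Nuclear pore complexes are built from many nucleoporins, most of which form the scaffold and the channel, while NUP210 is anchored in the membrane around the pore. Nucleoporins also contact chromatin, and some do so away from the pore, in the nucleoplasm. H3K27me3 is the Polycomb mark of silent genes and often spreads over long domains. H3K4me3 marks the starts of active and poised genes. "Without an NPC peak" means that no peak was listed there. NPC reads outside the listed peaks were not analysed here, so weak NPC signal at these regions cannot be told apart from none.

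As a picture of the DNA in these regions, 4 stretches of 250 bases upstream of a RefSeq start (GRCm38.p6) were chosen from the 31 that lie wholly inside a region. They are the 2 most enriched that begin the host gene itself, through an internal start, and the 2 most enriched that begin another gene nested in the host. Each is written in the direction of its gene, with CG dinucleotides in capitals because CpG density separates most active promoters from the rest of the genome.
8430415O14Rik (nested in Fam13a, chr6:58964949-58965198, plus strand): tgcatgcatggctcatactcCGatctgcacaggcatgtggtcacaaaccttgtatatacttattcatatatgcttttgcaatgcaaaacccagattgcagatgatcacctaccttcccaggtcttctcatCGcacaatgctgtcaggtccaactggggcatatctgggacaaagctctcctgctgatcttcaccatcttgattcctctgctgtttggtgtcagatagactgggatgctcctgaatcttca
Nedd4 (internal start, chr9:72693048-72693297, plus strand): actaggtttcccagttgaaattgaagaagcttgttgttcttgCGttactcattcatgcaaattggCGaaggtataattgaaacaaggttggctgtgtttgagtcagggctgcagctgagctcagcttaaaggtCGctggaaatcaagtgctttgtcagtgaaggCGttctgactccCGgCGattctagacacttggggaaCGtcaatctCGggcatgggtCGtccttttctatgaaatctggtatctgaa
Gm35768 (nested in Itpr2, chr6:146170676-146170925, plus strand): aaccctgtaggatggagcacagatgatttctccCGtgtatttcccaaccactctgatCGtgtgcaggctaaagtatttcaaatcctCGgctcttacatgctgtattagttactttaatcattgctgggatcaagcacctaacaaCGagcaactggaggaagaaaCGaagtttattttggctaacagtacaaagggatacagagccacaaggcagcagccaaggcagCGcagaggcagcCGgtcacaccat
Dock10 (internal start, chr1:80665353-80665602, minus strand): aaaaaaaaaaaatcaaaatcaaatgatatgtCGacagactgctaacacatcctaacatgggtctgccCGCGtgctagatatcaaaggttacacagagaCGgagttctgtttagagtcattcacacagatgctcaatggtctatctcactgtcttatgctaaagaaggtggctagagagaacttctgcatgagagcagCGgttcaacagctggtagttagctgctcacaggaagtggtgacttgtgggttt
These 4 hold 2, 9, 7 and 5 CG dinucleotides, and their G and C content is between 43.2% and 47.2%. Over all 31 stretches the median was 2 CG dinucleotides and 43.2% G and C, beside 6 and 52.4% over the 32851 stretches of the whole table. No H3K4me3 peak of sg-Ctrl overlapped any of the 31 starts, compared with 36.3% of all starts. The rule left out peaks that cover the start of a gene they are listed with. The H3K4me3 lists hold only peaks within 4 kb of a listed start. The contrast with all starts, in H3K4me3 and in CG dinucleotides, is therefore not free of the selection. Among 152 starts inside NUP210 peaks that did meet an NPC peak, the medians were 2 CG dinucleotides and 41.6%, and 3 starts met an H3K4me3 peak, so both kinds of region held similar starts. The letters CCCTC, on either strand, were found in 10 of the 31 stretches (32.3%), in 38.8% of the 152 and in 60.5% of all. The letters TATAAA, on either strand, were found in 19.4%, 19.7% and 12.4%. The start of 8430415O14Rik sits in a region of 8 kb with 211 NUP210 reads against 91 IgG reads, which H3K27me3 covered whole in both sg-Ctrl and KO. Nedd4, a ubiquitin ligase gene, holds 1 region of 6 kb with 200 reads against 98, free of H3K27me3 in both.

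The regions were narrow beside all NUP210 peaks, whose median width was 14 kb, and like most NUP210 peaks they were weakly enriched. The width of the regions ranged from 1 to 52 kb with a median of 9 kb, and together they covered 30.3 Mb. A region held 223 NUP210 reads in the median (61 to 1179) and 172 rabbit IgG reads (8 to 962). Enrichment, the NUP210 reads over the IgG reads after division by the ratio of library sizes (1.01), had a median of 1.30 (95% interval 1.28 to 1.31) and ranged from 0.65 to 8.16. At least 2-fold enrichment was reached by 268 regions (9.16%), and 318 (10.9%) had fewer NUP210 reads than scaled IgG. The deposited FDR was at most 0.05 for 2169 of them (74.1%).

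The 6243 NUP210 peaks inside genes that did meet an NPC peak were wider, with a median of 15 kb and a maximum of 256 kb, and less enriched, with a median of 1.17. Of these, 109 (1.75%) reached 2-fold. A wide peak has more length in which to meet an NPC peak, so the width follows in part from the rule. In every width class up to 32 kb the regions without an NPC peak were nevertheless the more enriched. For peaks of up to 4 kb the medians were 1.66 and 1.36, and for peaks of 8 to 16 kb they were 1.23 and 1.18. The NUP210 read density did not follow: it was 24.6 reads per kb in the regions and 26.4 in the peaks with an NPC peak. The IgG density was 18.9 and 22.4 reads per kb. The higher enrichment thus came with fewer IgG reads and not with more NUP210 reads. These values are a description, since they come from the libraries that defined the regions.

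**Figure D1:**
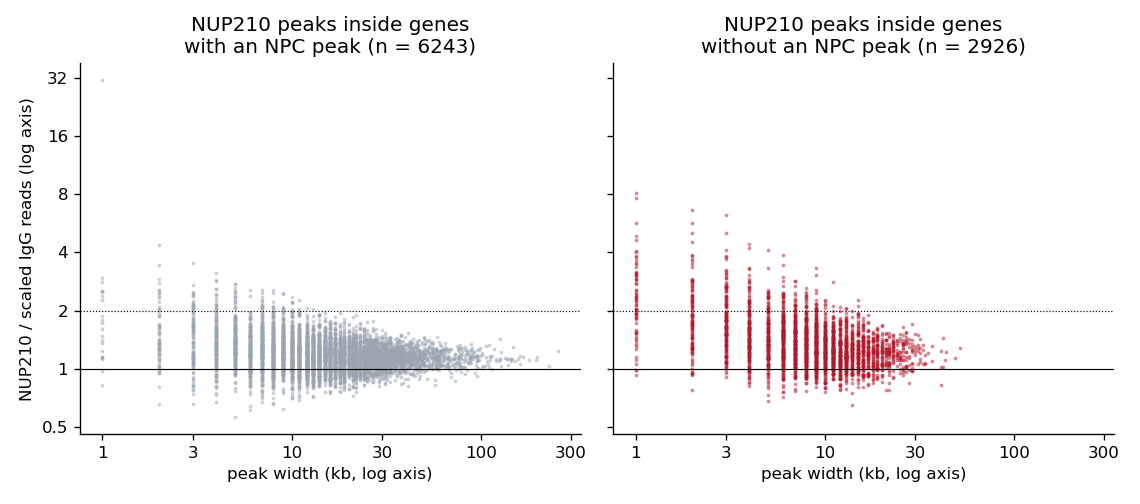
Enrichment of NUP210 over scaled IgG reads (log axis) against peak width in kb (log axis) for NUP210 peaks inside genes, with (left) and without (right) an NPC peak; each point is 1 peak, the solid line is equality with IgG and the dotted line 2-fold. The regions without an NPC peak end at 52 kb and hold 268 of the 377 peaks at 2-fold or more.

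Seen from the other side, 31.9% (Wilson 95% interval 31.0 to 32.9) of the 9169 NUP210 peaks inside genes had no NPC peak, and the share rose to 71.1% (268 of 377) among those of at least 2-fold enrichment. The share was also high among all such peaks of up to 4 kb (58.9%) and in the lowest of 5 equal groups by IgG density (58.2%). The 71.1% was adjusted for neither. Among NUP210 peaks that cover a gene's start or end, 25.1% of 4035 had none. The distance to the nearest NPC peak had a median of 22 kb (20 to 24). It was 5 kb or less for 500 regions (17.1%), 35 of which touched an NPC peak, and over 100 kb for 617 (21.1%).

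The most enriched regions were short and each held few reads. The first was 1 kb of Dock8, a guanine nucleotide exchange factor gene, at chr19:25100000-25100999 as listed, with 66 NUP210 reads against 8 IgG reads. Its enrichment of 8.16 had a counting interval of 3.91 to 19.7. A region of 1 kb in Skint10 had 62 reads against 8, an enrichment of 7.66 (3.66 to 18.5), and the nearest NPC peak was 734 kb away. In 4922501L14Rik, 2 kb held 94 reads against 14, an enrichment of 6.64 (3.77 to 12.6). The lower bounds of these 3 were all above 3-fold. Among the other regions of high enrichment, Clip1, which encodes a microtubule plus-end protein, and Efhc2 were both at 5.69, and below them were the dynein gene Dnahc7a at 5.05, Cpne4 at 5.03, 1810046K07Rik at 4.87 and Ryr2, the cardiac calcium release channel, at 4.64. The region of Ryr2 lay 1863 kb from an NPC peak. H3K27me3 covered the whole region in both libraries for Dnahc7a and 1810046K07Rik, in KO alone for Skint10, 4922501L14Rik and Ryr2, and in neither for Dock8, Clip1, Efhc2 and Cpne4. The widest regions were less enriched but rested on more reads. Chl1, a neural cell adhesion gene, held the widest at 52 kb, with 1179 reads against 906 and an enrichment of 1.29 (1.18 to 1.40). It was followed by Glrb, the glycine receptor beta subunit (49 kb, 1.14), Dpp10 (44 kb, 1.22), Aff4, a gene of the super elongation complex (43 kb, 1.11), and Lingo2 (42 kb, 1.45).

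At the border of the rule, the regions that touch an NPC peak had a median enrichment of 1.24 and the 127 peaks with at most 1 kb of NPC overlap one of 1.31. Just inside lay regions of Ptprk, a receptor phosphatase gene (1 kb, 62 reads against 30, enrichment 2.04), and of Rbfox1, a splicing regulator gene (9 kb, 235 against 120, 1.94). Outside, with 1000 bp of NPC overlap each, lay Stpg2 (2 kb, 118 reads against 34, 3.43) and Ankrd32 (1 kb, 66 against 22, 2.97). With the same overlap, the peak of 2510003D18Rik and Asb17 (1 kb) held 63 reads against 2, an enrichment of 31.2 (8.27 to 263). Those 1000 bp were its whole width, as for Ankrd32, so both peaks lay entirely under an NPC peak.

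The chromosomes differed widely. On the X chromosome 67.2% of the NUP210 peaks inside genes had no NPC peak (162 of 241), on chromosome 4 it was 58.5% (214 of 366) and on chromosome 7 it was 47.9%. At the other end were chromosome 8 with 21.0%, chromosome 16 with 19.4% and chromosome 15 with 14.8% (61 of 413). The intervals of X and chromosome 15, 61.1 to 72.8% and 11.7 to 18.5%, were far apart. The share moved with the rabbit IgG density of the same peaks, whose median was 17.2 reads per kb on X and 24.6 on chromosome 15. Over the 20 chromosomes Spearman's coefficient was -0.96 and Pearson's r -0.96, given as a description because all points share the same libraries. With only NPC peaks of an FDR of at most 0.05 counted, a setting chosen after seeing the data, Spearman's coefficient was -0.48. Across peaks in 5 equal groups of rising IgG density, the share without an NPC peak was 58.2%, 37.0%, 25.3%, 19.5% and 19.6%. The number of NPC peaks was also low where the share was high, with 126 on X and 276 on chromosome 4 beside 558 on chromosome 15. What sets the IgG density of a chromosome was not analysed here, and the part of IgG density in which peaks were without an NPC peak was not tested.

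**Figure D2:**
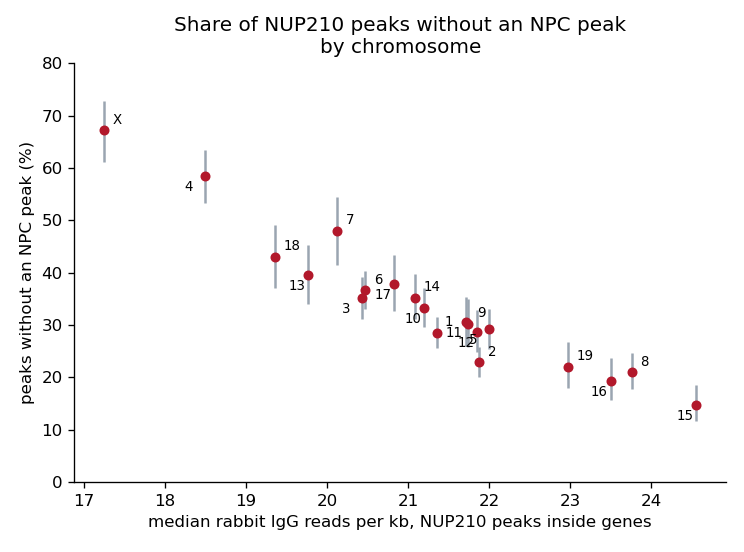
Share of NUP210 peaks inside genes without an NPC peak (%, with Wilson 95% intervals) against their median rabbit IgG reads per kb; each point is 1 of 20 chromosomes. X and chromosome 4 have the lowest IgG density and the highest shares, 67.2% and 58.5%, and chromosome 15 the highest density and the lowest share, 14.8%.

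Genes with many regions were long. Of the 6291 genes of the NUP210 list, 25.4% held at least 1 region. Among these, 1063 held 1, 435 held 2 to 4 and 100 held at least 5, and those 100 genes accounted for 856 regions. The median length was 127 kb for genes that hold a region, 72.9 kb for genes whose NUP210 peaks inside all met an NPC peak and 37.2 kb over the list. The share of peaks without an NPC peak did not rise steadily with length, however. It was 39.3% in genes of up to 50 kb, 27.6% from 50 to 100 kb, 30.2% from 100 to 200 kb, 30.8% from 200 to 500 kb and 34.5% above.

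Ptprd, a receptor phosphatase gene of synapse formation on chromosome 4, held the most. It had 36 regions among 50 NUP210 peaks inside the gene, covering 423 kb of 2271 kb, with enrichments from 0.91 to 3.81 and an FDR of at most 0.05 for 29. Dmd, the dystrophin gene on the X chromosome, had 23 of 26, with enrichments up to 2.79. Cntnap2, a neuronal adhesion gene of similar length, had only 20 of 50. Cntn4, a contactin gene, had 18 of 26, and Il1rapl1, a synaptic receptor gene on X, 18 of 36. 5033411D12Rik had 15 of 23. Csmd1 and Magi2, a synaptic scaffold gene, had 15 of 37 and 15 of 36, and the neurexin gene Nrxn3 14 of 34. The 10 genes with the most regions ranged from 40.0% to 93.8% without an NPC peak.

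Fhit, the gene of a common fragile site on chromosome 14, was the gene at the upper end, with 15 of 16. Its regions held between 109 and 647 NUP210 reads against 48 to 528 IgG reads. The smallest region was 2 kb with 109 reads against 48 (2.25-fold), and the largest was 35 kb with 647 against 528 (1.21-fold). All 15 were above 1, the lowest at 1.09, and 14 had an FDR of at most 0.05. The nearest NPC peak lay 11 to 408 kb away.

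**Figure D3:**
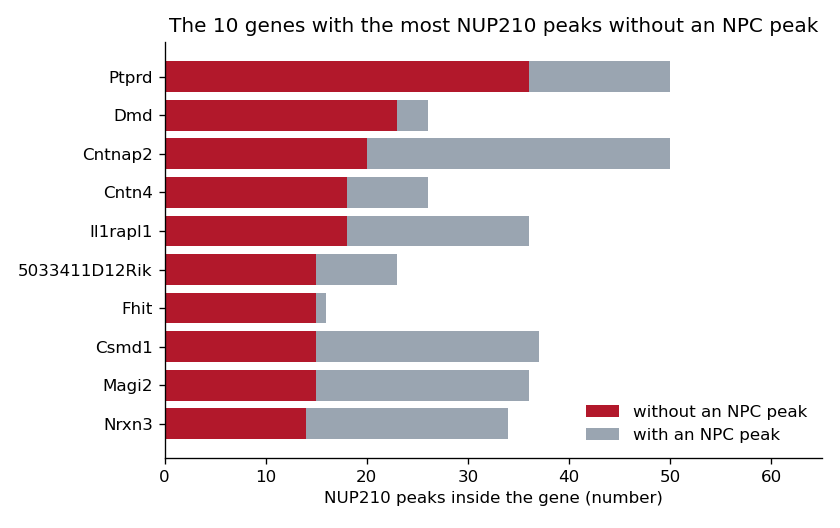
Number of NUP210 peaks inside each of the 10 genes that hold the most regions without an NPC peak, split into peaks without (red) and with (grey) an NPC peak. Ptprd has 36 of 50 without, Fhit 15 of 16 and Cntnap2 20 of 50.

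In 535 of the 1598 genes no NPC peak was listed anywhere on the gene, and 20 of these held 3 or more regions. Astn2, which encodes a neuronal membrane protein and lies on chromosome 4, was the first with 10 regions. They held from 114 to 596 reads against 38 to 447 IgG reads, enrichments ran from 1.00 to 2.97, and no NPC peak lay within 216 kb of any of them. The region of 3 kb with 114 reads against 38 was the most enriched, and a region of 8 kb with 171 against 68 followed at 2.49. Negr1, a neural adhesion gene, held 8 regions covering 125 kb, and Akap7, Cped1 and the transporter gene Slc5a8 held 4 each. Those of Akap7 were the weakest, with a median of 0.99 and 1 of 4 at an FDR of at most 0.05, while those of Cped1 and Slc5a8 all passed. Astn2, Negr1, Akap7, Cped1 and Slc5a8 were named after their values were seen.

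Gene lists chosen for this cell line and for long genes were compared by counts. Of the NUP210 peaks inside neuronal and synaptic adhesion genes, 41.2% (270 of 655; interval 37.5 to 45.0) had no NPC peak, beside 31.9% over all peaks inside genes, and 31 of 37 listed genes (83.8%) held a region, beside 25.4% over the NUP210 list. These genes had a median length of 965 kb, and their peaks an IgG density of 19.7 reads per kb. The 25.4% is not matched for length. Of all genes over 500 kb with a NUP210 peak inside, 155 held a region and 15 did not, so most genes that long held a region. Ptprd, Astn2 and Il1rapl1 had the most enriched ones (3.81, 2.97 and 2.66), and these 3 genes lie on the chromosomes with the highest shares. Genes of common fragile sites, with a median length of 1105 kb, had 34.2% (29.9 to 38.8; 18 of 21 genes), with Dpyd, a pyrimidine breakdown enzyme gene (13 of 20 peaks, up to 3.79), Park2 (up to 3.24) and Rad51b (up to 2.88). Collagens and matrix proteins had 36.4% of 66 peaks (25.8 to 48.4), among them all 4 of Fbn1, the fibrillin gene, with a maximum of 2.84, then Col25a1 (2.03) and Col11a1 (1.86).

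Axon guidance genes and integrins had intervals that ended below the overall share, and other groups did not. Axon guidance genes had 22.6% of 164 peaks (16.8 to 29.5) at an IgG density of 22.0 reads per kb, and 13 of 22 genes held a region, led by Ntng1 (3.07), the netrin receptor gene Dcc (12 of 22 peaks, up to 2.46) and Slit2 (2.30). Voltage-gated channels had 25.5% (19.2 to 32.9), with Kcnh8 (8 of 11 peaks, up to 2.29), Kcnip4 (2.10) and Kcnb2 (2.10). Glutamate and GABA receptors had 26.1% (20.2 to 33.1), among them Grm5, a metabotropic receptor gene (13 of 20 peaks, up to 2.11), and Grin3a (2 of 2, up to 1.74). Cadherins and catenins had 27.6% (21.9 to 34.1), with Cdh20 (2.41), Pcdh11x (5 of 7 peaks, 2.28) and Pcdh15 (4 of 23, 1.86). Integrins and focal adhesion genes had the lowest share, 13.3% (4 of 30 peaks), in Lpp (2.44), Vcl (1.33) and Itga4 (0.84). The interval of that share was 5.31 to 29.7%, and the IgG density of these peaks was 24.1 reads per kb. Over all peaks, the group with a median of 24.2 reads per kb had 19.5% without an NPC peak.

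Growth factor receptors and mammary regulators had 26.9% of 93 peaks (18.9 to 36.7). Esr2, estrogen receptor beta, had 1 region at 3.49 and no other NUP210 peak inside it, Nrg3 had 11 of 30 and Erbb4 7 of 27. Chromatin and Polycomb regulators had 34.8% of 46 peaks (22.7 to 49.2), with Hdac9, a histone deacetylase gene (9 of 22, up to 3.83), and the histone demethylase gene Kdm4c (2.83) and the methyltransferase gene Ehmt1 (2.43). Of lamina, LINC complex and nucleoporin genes, 3 of 13 (23.1%) held a region, near the 25.4% of the whole list, and 6 of their 20 peaks had no NPC peak. They were Nup98 (2, up to 1.70), Syne1 (3, up to 1.49) and Nup205 (1 at 1.02). Of cytokine and migration genes, 1 of 5 in the NUP210 list (20%) held a region, near the 25.4% of the whole list. These genes were short, with a median of 2.33 kb, and only 2 NUP210 peaks lay inside them. The single region was in Il1rap (1.06). No NUP210 peak was listed for Nup210 itself.

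Along the gene, the regions were spread evenly but for the ends. By the midpoint of the region, the 5 equal parts of the gene from start to end held 18.2%, 21.4%, 23.2%, 21.9% and 15.3%. The rule removes peaks that cover a start or an end, which lowers the outer parts. Peaks with an NPC peak, under the same rule, had 12.3% in the last part, a difference of 3.03 points (interval 1.53 to 4.58). In the first part the shares were 18.2% and 17.7%, and in genes of at least 100 kb the last part held 17.0% and 13.99%. The median distance of a region was 93.3 kb to the gene's start and 99.9 kb to its end.

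H3K27me3, which the choice of regions did not use, overlapped a minority of them, in similar number in both libraries. In sg-Ctrl cells 940 regions (32.1%, 30.5 to 33.8) met an H3K27me3 peak, against a background of 34.9% over all NUP210 peaks. In KO cells 934 did (31.9%, 30.3 to 33.6), against 35.6%. The mark was present in both libraries at 779 regions, in sg-Ctrl alone at 161, in KO alone at 155 and in neither at 1831. The shares in sg-Ctrl alone and in KO alone were 5.50% and 5.30%, beside 4.25% (561) and 4.92% (649) over all 13204 NUP210 peaks. Those in both and in neither were 26.6% and 62.6%, beside 30.7% and 60.2%. Where H3K27me3 was present it mostly covered the region. At 651 regions in sg-Ctrl and 676 in KO it covered the whole width, and it took 26.3% and 26.0% of the total length. Losses and gains were thus nearly balanced in number.

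NUP210 peaks inside genes that met an NPC peak overlapped H3K27me3 at 35.4% in each library. The regions were 3.32 points lower in sg-Ctrl (interval of the difference -5.37 to -1.24) and 3.51 points lower in KO (-5.56 to -1.43). At the widths of the regions, the peaks with an NPC peak would have had 33.7% and 33.9%. The first value lies inside the interval of the regions and the second just above it. Among peaks of up to 4 kb the regions had more H3K27me3, 34.6% against 29.1% in sg-Ctrl (difference 5.55, -0.90 to 11.8) and 36.2% against 29.1% in KO (7.17, 0.68 to 13.4). Among those of 8 to 16 kb they had less, 30.4% against 34.5% (-4.11, -7.35 to -0.80) and 30.1% against 35.5% (-5.41, -8.65 to -2.09). Within chromosomes the direction was not shared: the regions had the lower share on 12 of 20 chromosomes in sg-Ctrl and on 7 of 20 in KO.

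**Figure D4:**
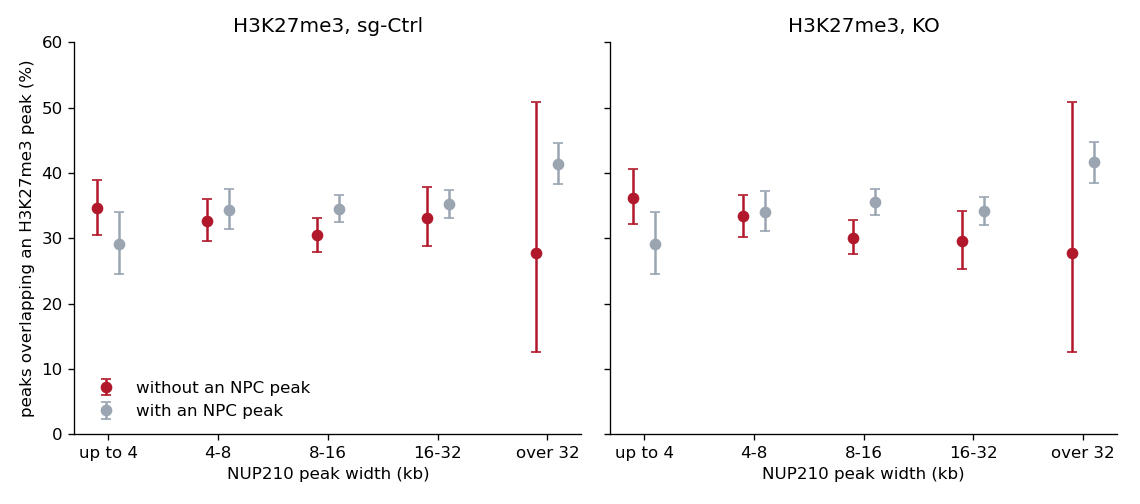
Share of NUP210 peaks inside genes that overlap an H3K27me3 peak (%, with Wilson 95% intervals) by peak width in kb, for sg-Ctrl (left) and KO (right) cells; red, without an NPC peak; grey, with an NPC peak. The regions are above the others up to 4 kb and below them from 8 to 16 kb in both libraries.

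Regions with H3K27me3 in sg-Ctrl had a median enrichment of 1.27 (1.24 to 1.29) and those without it 1.31 (1.29 to 1.33). Of the 268 regions of at least 2-fold enrichment, 29.5% met H3K27me3 in sg-Ctrl and 32.8% in KO, beside 33.9% and 30.3% of the 109 peaks with an NPC peak at that enrichment. Among the genes with the most regions, the mark was rare in both libraries at Cntn4, 5033411D12Rik and Fhit, which had none. It was present at 5 regions of Ptprd in sg-Ctrl and at 1 in KO, at 4 and none of Il1rapl1, and at 10 and 5 of Magi2. Dlg2, a synaptic scaffold gene with 12 regions, went the other way with 6 and 8. By chromosome, the share of regions with H3K27me3 was 23.4% in sg-Ctrl and 15.4% in KO on chromosome 4, and 27.3% and 38.2% on chromosome 8. The other NUP210 peaks of those chromosomes moved in the same direction, from 27.6% to 12.5% and from 48.3% to 55.1%.

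To compare the amount of H3K27me3, overlapping peaks of both libraries were joined and reads were scaled by library size. The regions met 968 joined domains, and 703 of these had peaks in both libraries, while 129 had none in sg-Ctrl and 136 none in KO. Over all 10188 joined domains, 2170 had none in sg-Ctrl and 1771 none in KO. Domains in KO alone were thus the more numerous kind over all, and slightly the less numerous kind among those that met a region. The log2 of KO over sg-Ctrl had, over the 703, a median of 0.0026 (-0.060 to 0.050), and over all 6247 domains with peaks in both it was 0.016. At least 2-fold lower were 70 (9.96%, background 9.56%) and at least 2-fold higher were 80 (11.4%, background 12.1%), so the shares were close to those of all domains. The lists hold reads of called peaks only, and a ratio therefore follows the length that was called. Among the 703 domains, 412 were longer in KO, 217 shorter and 74 equal. Among all 6247, 3454 were longer, 1837 shorter and 956 equal, so that longer domains outnumbered shorter ones there too. When reads were taken per kb of each library's own peaks, the median was -0.14, as it was over all domains. By that measure 10 domains were 2-fold lower (1.42%, background 1.02%) and 2 higher (0.284%, background 0.16%).

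The domains with the largest ratios were of that kind. At Ahrr, the aryl hydrocarbon receptor repressor gene, the called length fell from 38 kb in sg-Ctrl to 3 kb in KO (log2 -4.17). At Dclk1, a microtubule-associated kinase gene, it fell from 46 to 5 kb (log2 -4.10), and at Trim9 with Mir4660 from 156 to 14 kb (5606 and 1325 reads, log2 -3.74). Igsf10 went from 39 to 7 kb (log2 -3.68) and Gm960 from 35 to 7 kb (log2 -3.42). In the other direction, 2 domains of Dlg2 went from 8 to 79 kb (147 and 6281 reads, log2 3.76) and from 3 to 41 kb (log2 3.72). Slc25a21 went from 7 to 64 kb (log2 3.60), the carboxylesterase genes Ces1d and Ces1f from 33 to 223 kb (log2 3.51), and Casr, the calcium-sensing receptor gene, from 16 to 155 kb (log2 3.40). With 1 clone and 1 library on each side, these differences have no replicate check.

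H3K4me3 was rare within the regions. In sg-Ctrl 97 (3.32%) overlapped an H3K4me3 peak and in KO 101 (3.45%), compared with 5.46% and 5.43% of the NUP210 peaks with an NPC peak. The difference in sg-Ctrl was -2.15 points (-2.98 to -1.26). It was not adjusted for width, and a wide peak has more length in which to meet H3K4me3. The 97 regions came from 30.3 Mb in all, and the 341 peaks with an NPC peak that met H3K4me3 from 125.8 Mb. A lower share per peak is thus not a lower amount per length. The H3K4me3 lists hold only peaks within 4 kb of a listed start, so marks elsewhere were not seen. The most enriched regions with H3K4me3, named after their values were seen, were in Upf2, a gene of nonsense-mediated decay (167 reads against 66, 2.50-fold), Cacybp (2.26), Hmga2, an architectural chromatin protein gene (2.22), Hnrnpr (2.15), Fem1b (2.07) and Ankrd11 (2.05).

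The genes that hold the regions less often carried H3K4me3 at their own start than genes whose NUP210 peaks inside all met an NPC peak. In sg-Ctrl 838 of 1598 (52.4%) had an H3K4me3 peak at the TSS, against 1048 of 1493 (70.2%) among genes whose NUP210 peaks inside all met an NPC peak. The difference was -17.8 points (-21.1 to -14.4). Genes over 200 kb had the mark less often, and the difference held within length classes. It was -8.26 points for genes of up to 50 kb, -11.7 points from 50 to 100 kb and from 100 to 200 kb, and -13.8 points (-23.1 to -4.23) from 200 to 500 kb. Above 500 kb there were 33 of 155 and 4 of 15 genes, and the interval of -5.38 points reached from -31.3 to 11.9. On 20 of 20 chromosomes the genes with a region had the lower share. In KO the share was 51.7%. All 4693 other genes of the NUP210 list had 51.8% in sg-Ctrl, close to the 52.4% of genes with a region. They include the 1493 genes above and those with peaks over a start or end only. Because the 1493 had 70.2%, the remaining genes of the list had a share below 51.8%, and so below that of genes with a region. The lower share therefore holds against those 1493 genes only, and against the remaining genes the direction was the opposite.

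**Figure D5:**
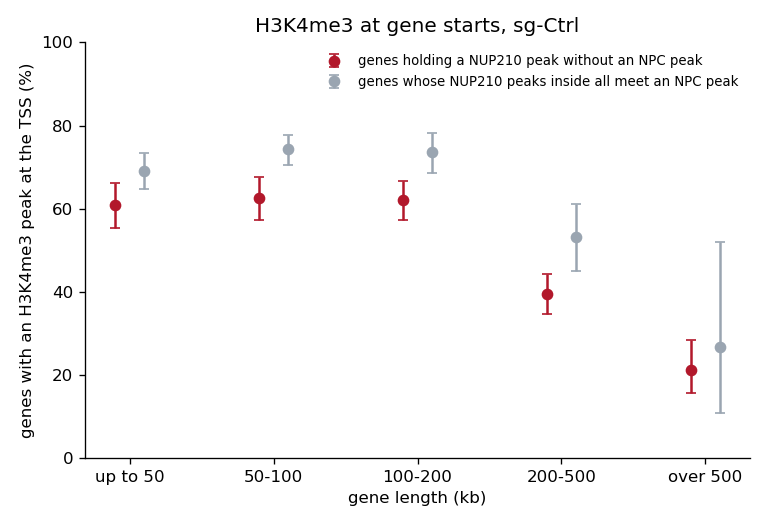
Share of genes with an H3K4me3 peak at the TSS in sg-Ctrl (%, with Wilson 95% intervals) by gene length in kb; red, genes that hold a NUP210 peak without an NPC peak; grey, genes whose NUP210 peaks inside all meet one. The red points are below the grey ones in each of the 5 length classes, and the intervals overlap widely above 500 kb.

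H3K4me3 in KO relative to sg-Ctrl was compared at the 815 of these genes with a TSS peak in both. The median log2 ratio of scaled reads per kb was -0.54 (-0.57 to -0.51), beside -0.50 over all 12197 genes with peaks in both. By these medians, most of the shift was common to all genes. When the libraries were scaled by the reads of shared peaks instead, the medians were -0.07 and -0.03. That scaling moves every gene by the same amount, so it cannot change the difference between these genes and all genes. At least 2-fold lower were 84 genes (10.3%, background 9.66%) and higher 3 (0.368%, background 0.525%). With the other scaling, 12 were lower (1.47%, background 1.07%) and 15 higher (1.84%, background 2.01%). The largest decreases were at Cped1 (592 and 125 reads, log2 -1.91), the kinase gene Mast2 (2914 and 1282 reads, log2 -1.83), Gm12603 (log2 -1.76), Nhsl1 (log2 -1.76, where the compared peaks do not overlap) and Glo1, the glyoxalase gene (5211 and 4075 reads, log2 -1.66). At Glo1 the reads fell far less than the density, which went from 1228 to 388 scaled reads per kb, because the KO peak was longer. The largest increases started from few reads, at Plcl2 (39 and 241 reads, log2 1.55), Grb14, an adaptor gene of insulin signalling (73 and 505, log2 1.45), Plcl1 (72 and 630, log2 1.20), Cadps2 (34 and 594, log2 0.97) and Tmem117 (97 and 377, log2 0.96). Plcl2 and Plcl1 encode related phospholipase C-like proteins and held 3 and 6 regions, and no NPC peak was listed on Plcl2.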

How the data were processed

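The 4T1 data consist of 6 peak lists from ChIP-seq, 1 for each library. Peaks were called by the authors with SICER relative to IgG (window 200 bp for H3K4me3, 1000 bp for broad peaks) and then intersected with gene bodies (H3K27me3, NUP210, NPC) or with 4 kb either side of the TSS (H3K4me3). The window used for NPC was not given in the sources used here, although its peaks lie on a 1000-bp grid. Each deposited list gives raw read counts of ChIP and IgG, the fold (ratio) after scaling to library size, and the p-value and FDR, as computed by the authors. The roles of Bowtie2 and Picard, named in the submitters' processing notes, and of the builds were not given. Positions are printed as listed. Gene starts or ends lay within 50 bp of those of GRCm38.p6 for 85.9% of 5853 genes matched by name, and of those of NCBIM37 for 2.46% of 5774.

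Rows were collapsed to distinct peaks, the library ratio was recovered from counts and fold, and overlap required 1 bp (Python 3.11.15, pandas 2.3.3, scipy 1.17.1). Overlap code was tested on simulated data. Total depth is unknown beyond these ratios; the NUP210 peaks held 7194586 reads and the NPC peaks 5866175. Intervals are 95% Wilson intervals for shares, Newcombe intervals for differences, order statistics for medians and exact binomial intervals for read ratios. Counting error is all they cover, and genes or regions are not replicates. No test over replicates was possible.

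The regions, gene lists and comparisons were chosen with earlier results of these data known. Named are the 10 most enriched regions (an FDR of at most 0.05, at least 20 reads), the 5 widest, at most 3 on each side of the border of the rule, the 10 genes with most regions, up to 3 genes per list, and up to 5 per direction with the largest KO ratio and at least 100 reads, with Nup210. Some results under this rule are not reported here. At the border, 1 region of chromosome 18 was left out. The 3 IgG samples entered only through the lists. RNA-seq (4 samples) was not analysed here. Alternatives were stricter lists (FDR to 0.05, or 2-fold), other overlaps, autosomes, other scalings and gene length.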

Additional observations from a re-analysis of the deposited data

How the results depend on the processing

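With only NPC peaks of an FDR of at most 0.05 counted, 5897 regions were selected instead of 2926, with a median width of 12000 bp and a median enrichment of 1.22, and the rank correlation of chromosome share with IgG density went from -0.96 to -0.48. When an NPC peak had to cover at least 50% of a NUP210 peak, the median width was 11000 bp and the enrichment 1.26. With NUP210 peaks of an FDR of at most 0.05 the enrichment was 1.41. The share with H3K27me3 was 30.01% in sg-Ctrl and 29.8% in KO when both peaks had such an FDR, 23.1% and 22.4% when both reached 2-fold, and 29.2% and 29.4% when H3K27me3 had to cover at least 50%. The NUP210 peaks with an NPC peak had 34.4% and 34.0%, 24.8% and 18.3%, and 29.9% and 31.0% under these settings, so that at 2-fold in KO the regions had the higher share, with overlapping intervals. The H3K27me3 log2 ratio was 0.15 when scaled by shared peaks and -0.14, the opposite sign, per kb of each library's own peaks. Over all domains these medians were 0.16 and -0.14, so neither shift was particular to the regions. The H3K4me3 log2 ratio was -0.0745 when scaled by shared peaks. The share of host genes with H3K4me3 at the TSS was 49.6% for regions of an FDR of at most 0.05, and the last part of the gene held 17.0% in genes of at least 100 kb. The cause of these shifts was not tested. No paired analysis was possible because each ChIP condition has 1 library; for the same reason no library could be left out. Depth limits the short, strongly enriched regions, which rest on at most 122 NUP210 reads each among those named by enrichment.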

Other observations

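The opposite set, NPC peaks inside genes without a NUP210 peak, held 1338 regions. Their median width was 11 kb, their median enrichment over mouse IgG was 1.25, and 41 (3.06%) reached 2-fold. H3K27me3 overlapped 31.2% of them in sg-Ctrl and 31.4% in KO, close to the 32.1% and 31.9% of the NUP210 regions without an NPC peak. Because the antibodies, IgG libraries and library ratios differ (1.01 for NUP210 and 0.606 for NPC), the enrichments of both sets were not compared.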
